A study of Mus musculus with 15 samples.

Results

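Alveolar macrophages with high surface CD11b from knockout mice were compared with resident CD11b-low alveolar macrophages from wild-type mice, both at 12 weeks of age. The comparison used 6 of the 15 libraries of the study, 3 in each group, chosen by their labels. All mice were naive animals of the C57BL/6 strain. The knockout mice lack Cybb and serve as a model of chronic granulomatous disease (CGD). Cells came from bronchoalveolar lavage and were sorted as CD45+ Ly6G- SiglecF+ CD11c+ before they were split by CD11b. Each library pooled 2 to 3 mice and about 50000 cells, and the 3 libraries of a group are described as independent replicates. CD11b-low cells of knockout mice at 12 weeks were also sequenced, but no wild-type library of CD11b-high cells is among the samples. Genotype and subset therefore change together in the comparison and cannot be told apart within it. The sorts of both groups share every gate except CD11b, and the sex of the mice is not in the labels.

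Alveolar macrophages settle in the airspaces around birth, renew themselves locally and clear surfactant, debris and microbes. NOX2, also called gp91phox, is the Cybb product and the catalytic core of the phagocyte NADPH oxidase, which makes superoxide. Without it, mice and people with CGD have severe infections and also inflammation with no evident microbe. CD11b, the integrin chain encoded by Itgam, is low on resident alveolar macrophages and is carried by monocytes, neutrophils and macrophages that arise in inflamed lungs.

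The 6 libraries held 22856331 to 36347204 counts, and Lyz2 was the most abundant gene in each. Libraries of the CD11b-high knockout group correlated with each other at 0.953 to 0.965 (Pearson r of log2 levels across genes). Among the wild-type libraries, replicate 1 stood apart: it correlated with the other wild-type libraries at 0.936 and 0.937, which correlated with each other at 0.976. Mitochondrial genes took 0.763 to 0.914% of counts in the CD11b-high knockout and 1.13 to 1.29% in the wild-type libraries, without overlap. Xist, a transcript of female cells, was at 20.6, 0.175 and 26.2 CPM (counts scaled to a common library size) in CD11b-high knockout replicates 1 to 3 and at most 0.0853 CPM in the wild-type libraries. Ddx3y, a gene of the Y chromosome, was at 20.4, 86.85 and 35.7 against 28.5, 31.6 and 42.6 CPM. The CD11b-high knockout libraries with Xist thus held reads of male cells too. The part of sex in the differences was not tested as a term. A fit with only CD11b-high knockout replicate 2, the library with almost no Xist, was also made. All of its libraries are in the full fit, so its likeness to the full fit cannot show the part of sex. In bulk samples, fewer cells of a type and less RNA per cell cannot be told apart.

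Cybb transcript fell in the knockout libraries, and Itgam was far higher in the CD11b-high sort. Levels are given as TMM-scaled CPM for replicates 1 to 3 in that order, and differences as CD11b-high knockout minus wild-type on the log2 scale. Cybb was at 146, 173 and 129 CPM in the CD11b-high knockout and at 899, 957 and 1221 CPM in the wild-type libraries (log2 difference -2.78 ± 0.25 SE, edgeR adjusted p = 2.43e-06). It was at 134, 186 and 169 CPM in CD11b-low knockout cells, so both knockout groups kept a low level of transcript. Itgam was at 30.7, 88.4 and 61.5 CPM in the CD11b-high knockout libraries and at 0.805, 1.66 and 2.24 CPM in the wild-type libraries (log2 difference 5.27 ± 0.48 SE, edgeR adjusted p = 2.43e-06). Itgam was the sort marker, and its direction is a check of the gate and not a finding. Of the markers shared by both gates, Siglecf, a lectin of alveolar macrophages and eosinophils, was at 201, 170.2 and 200.3 against 213, 308 and 308 CPM and did not pass the test (log2 difference -0.54 ± 0.23 SE, edgeR adjusted p = 0.125), though it passed without wild-type replicate 1 (-0.70, adjusted p = 0.0314). Ptprc, which encodes CD45, was at 492, 714 and 437 against 338, 577 and 593 CPM (log2 difference 0.12, edgeR adjusted p = 0.807), and its sign turned without CD11b-high knockout replicate 2 (-0.11) or wild-type replicate 1 (-0.10). Itgax, which encodes CD11c, passed the test with overlapping libraries, 749, 467 and 586 against 491, 205 and 252 CPM (log2 difference 0.93 ± 0.30 SE, edgeR adjusted p = 0.0445). The Itgax call was lost without any 1 of 5 of the 6 libraries, with edgeR adjusted p from 0.0558 to 0.155. Ly6g, the neutrophil marker gated out, had no count in any of the 6 libraries.

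Of 13284 genes tested, 1970 differed (14.8%), with 1226 higher (9.23%) and 744 lower (5.6%) in CD11b-high knockout cells (edgeR quasi-likelihood test, adjusted p under 0.05). The higher genes also moved farther: 634 of them were past a 4-fold difference, against 66 of the lower genes. Libraries of the 2 groups did not overlap for 3504 genes (26.4%), among them 1845 of the 1970. The number called depended on which libraries were in the fit. It was 952 without CD11b-high knockout replicate 2 and 793 with only the 6 libraries in the fit. In a simulation of this comparison on 13001 genes, 67% of genes changed 4-fold and 14% of those changed 2-fold were recovered. It changed only 100 genes at each fold, far fewer than the 1970 called here, so these shares need not hold for the data. Differences of modest size may still have been missed.

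**Figure D1:**
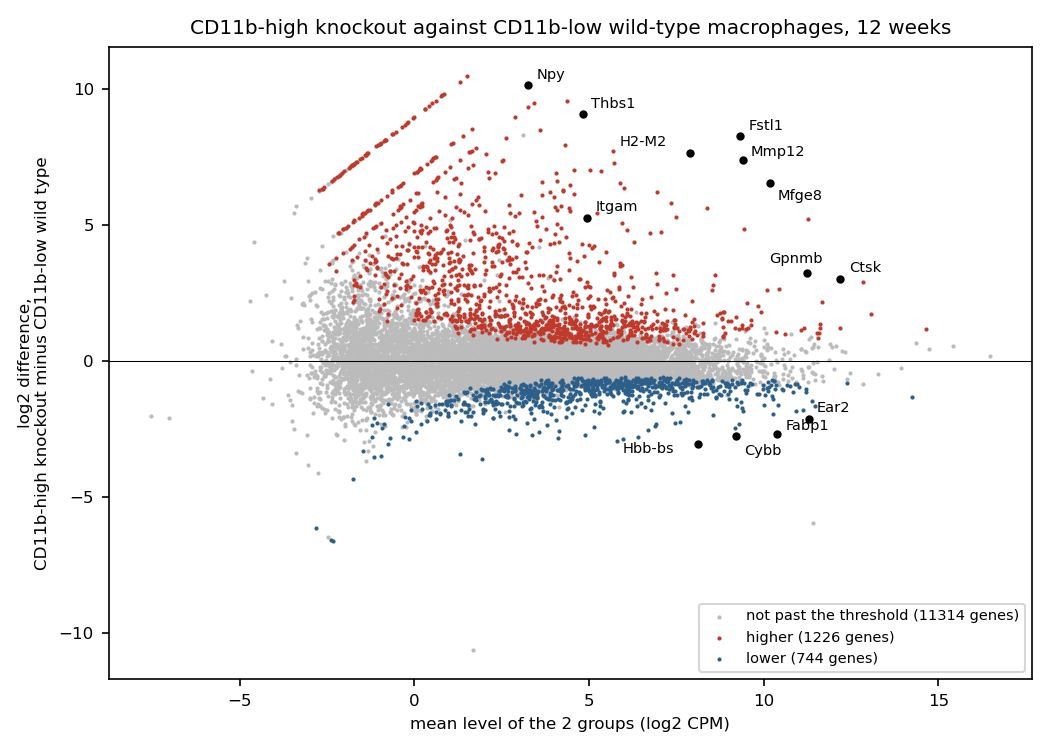
Each point is 1 of the 13284 genes tested, with the log2 of its mean level over the 2 groups (CPM) on the x axis and the log2 difference, CD11b-high knockout minus CD11b-low wild-type, on the y axis. Red points are the 1226 higher and blue points the 744 lower genes, and the higher genes reach much larger differences, as for Npy (10.14) and Fstl1 (8.26), than lower genes such as Hbb-bs (-3.07) and Cybb (-2.78).

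The largest rises included secreted proteins, matrix proteases and genes of cell fusion that were close to silent in wild-type macrophages. Fstl1 encodes a secreted glycoprotein related to follistatin, the activin antagonist. It was at 1789, 1013 and 1036 CPM in the CD11b-high knockout and at 4.07, 4.49 and 3.97 CPM in the wild-type libraries, a 306-fold difference (log2 difference 8.26 ± 0.56 SE, edgeR adjusted p = 1.96e-07). Every CD11b-high knockout library was more than 100 times above every wild-type library. Mmp12, the macrophage elastase, was at 1055, 2133 and 843 against 4.51, 13.1 and 6.48 CPM, 166-fold higher (log2 difference 7.38 ± 0.60 SE, edgeR adjusted p = 9.89e-07). H2-M2, a nonclassical MHC class I gene, was at 628, 592 and 205 against 4.39, 1.59 and 1.10 CPM (log2 difference 7.65 ± 0.70 SE, edgeR adjusted p = 4.19e-06), and its difference was 8.44 without wild-type replicate 1, the highest wild-type library for this gene. For these genes, the 3 CD11b-high knockout libraries lay close together compared with the gap between groups.

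Several other of the 15 largest rises had almost no wild-type reads. Npy, which encodes the peptide neuropeptide Y, was at 13.9, 28.9 and 14.4 CPM in CD11b-high knockout libraries and had 1 read in all wild-type libraries together (log2 difference 10.14 ± 0.77 SE, edgeR adjusted p = 5.60e-07). Its ratio of reads per library size was 1420 with an exact 95% counting interval of 255 to 56200. The interval is wide because the wild-type side rests on so few reads, and intervals here cover counting error only. Dcstamp, a membrane protein needed for macrophage and osteoclast fusion, was at 12.6, 33.8 and 10.8 against 0, 0.0318 and 0.0456 CPM (log2 difference 9.33 ± 0.84 SE, edgeR adjusted p = 2.43e-06), with a ratio of 690 with an exact 95% counting interval of 191 to 5700. Asprv1, an aspartic protease, was at 4.85, 19 and 20.4 against 0.0805, 0 and 0 CPM (log2 difference 8.95 ± 1.05 SE, edgeR adjusted p = 2.65e-05), with a ratio of 591 with an exact 95% counting interval of 163 to 4880. Blnk, an adaptor protein of antigen receptor and Fc receptor signalling, was at 6.81, 23.9 and 6.23 against 0.0805, 0.0318 and 0 CPM (log2 difference 8.18 ± 1.06 SE, edgeR adjusted p = 6.33e-05), with a ratio of 293 with an exact 95% counting interval of 99.8 to 1420. No wild-type library of these 4 genes exceeded 0.0805 CPM. Mmp14, a membrane-bound matrix protease that activates other proteases, was at 16, 8.81 and 8.89 against 0.201, 0 and 0 CPM (log2 difference 7.35 ± 0.98 SE, edgeR adjusted p = 8.22e-05). Fitted differences of such genes move with single wild-type libraries. Without wild-type replicate 1 they were 12.23 for Npy, 11.86 for Asprv1, 9.08 for Blnk and 11.47 for Mmp14. Without wild-type replicate 2 they were 9.55 for Npy, 8.30 for Asprv1 and 6.68 for Mmp14. Without CD11b-high knockout replicate 2, where Blnk and Dcstamp were highest, they were 7.27 and 8.63. All of these calls held.

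The remaining 7 of the 15 largest rises were uneven among the CD11b-high knockout libraries themselves, differing more than 10-fold between the highest and the lowest. Retnla, a secreted product of alternatively activated macrophages, was at 0.693, 119 and 4.71 against 0.0805, 0.0318 and 0.0456 CPM (log2 difference 9.55 ± 2.33 SE, edgeR adjusted p = 0.018). Ccl8, a ligand of monocyte-attracting receptors, was at 0.367, 55.9 and 7.78 against 0, 0.0318 and 0.0456 CPM (log2 difference 9.49 ± 1.81 SE, edgeR adjusted p = 0.00471), with a ratio of 726 with an exact 95% counting interval of 201 to 6000. Both were carried mostly by replicate 2, and without it the differences were 5.61 and 7.11. Thbs1, the matrix protein thrombospondin 1, which activates latent TGF-beta, was at 1.75, 71.6 and 97 against 0.121, 0.0955 and 0.0913 CPM (log2 difference 9.06 ± 1.42 SE, edgeR adjusted p = 8.78e-04, 8.43 without replicate 3). C1qb, a chain of complement C1q, was at 3.87, 73.4 and 41.3 against 0.0805, 0.0637 and 0.365 CPM (log2 difference 7.93 ± 0.99 SE, edgeR adjusted p = 6.33e-05, 7.12 without CD11b-high knockout replicate 2, 9.03 without wild-type replicate 3). For both genes replicate 1 was far below the other CD11b-high knockout libraries yet above every wild-type library. Fbp1, an enzyme of gluconeogenesis, was at 1.55, 287 and 21.4 against 0.443, 0.477 and 0.548 CPM (log2 difference 7.71 ± 2.26 SE, edgeR adjusted p = 0.0434). Mmp13, a collagenase, was at 0.693, 27.1 and 6.88 against 0, 0.0318 and 0.183 CPM (log2 difference 7.38 ± 1.21 SE, edgeR adjusted p = 0.00107, 5.76 without CD11b-high knockout replicate 2, 9.06 without wild-type replicate 3). Replicate 1 was again the lowest and replicate 2 the highest. Ccl7, a further ligand of monocyte receptors, was at 11.7, 172 and 129 against 0.966, 0.541 and 0.502 CPM (log2 difference 7.28 ± 0.97 SE, edgeR adjusted p = 1.90e-04). Among the 15 rises, replicate 1 was the lowest CD11b-high knockout library for 9 genes and replicate 2 the highest for 10. With limma voom, an alternative test, the calls of Ccl8, Retnla and Fbp1 were lost (adjusted p = 0.114, 0.181 and 0.136). The calls of Retnla and Fbp1 were also not stable to single libraries. Retnla lost its call without any 1 of the wild-type libraries (edgeR adjusted p 0.0565 to 0.0731). Fbp1 lost its call without any 1 library except CD11b-high knockout replicate 1 (edgeR adjusted p 0.0525 to 0.137) and its difference without replicate 2 was 4.55.

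**Figure D2:**
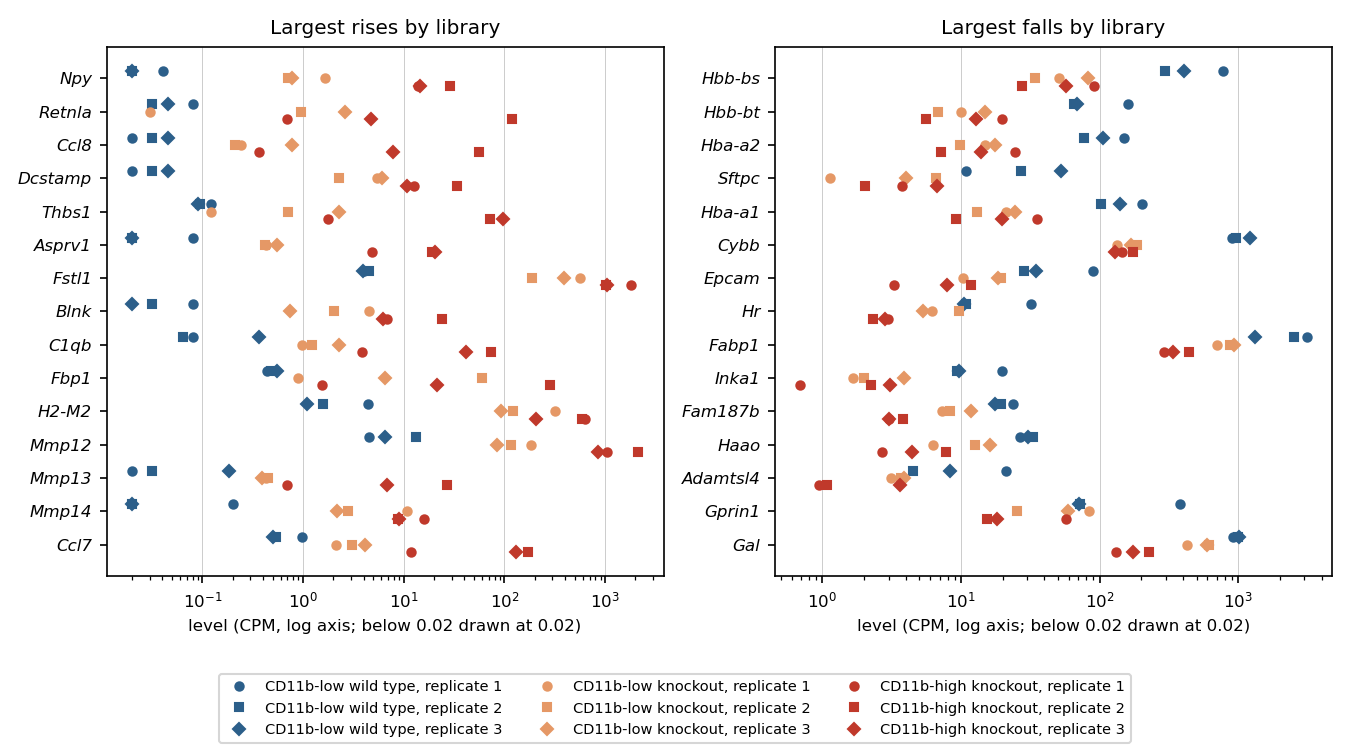
Levels (CPM, log axis) of the 15 largest rises and the 15 largest falls in each 12-week library, with wild-type in blue, CD11b-low knockout in orange and CD11b-high knockout in red, and the marker shape giving the replicate. The red points of Fstl1 and Mmp12 lie together, those of Retnla, Ccl8 and Fbp1 spread over more than 100-fold, and for the globins, Sftpc and Cybb the orange points lie among or next to the red ones.

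The largest falls were smaller and held haemoglobins, epithelial transcripts and products of resident macrophages. Fabp1, a fatty acid binding protein, was at 291, 441 and 338 against 3119, 2516 and 1323 CPM, 6.51-fold lower (log2 difference -2.70 ± 0.31 SE, edgeR adjusted p = 1.84e-05). Gal, the neuropeptide galanin, was at 131, 227 and 174 against 913, 1001 and 1020.5 CPM, 5.52-fold lower (log2 difference -2.47 ± 0.25 SE, edgeR adjusted p = 5.26e-06). The libraries of each group lay close together for Gal, and the groups were separated by about 4-fold. Haao, an enzyme of tryptophan breakdown, was at 2.69, 7.78 and 4.43 against 26.4, 33.3 and 30.2 CPM (log2 difference -2.60 ± 0.37 SE, edgeR adjusted p = 1.57e-04). Fam187b was at 3.02, 3.80 and 3.04 against 23.7, 19.6 and 17.4 CPM (log2 difference -2.62 ± 0.27 SE, edgeR adjusted p = 6.55e-06), and Inka1 at 0.693, 2.25 and 3.07 against 19.9, 9.42 and 9.72 CPM (log2 difference -2.69 ± 0.45 SE, edgeR adjusted p = 6.62e-04). Hbb-bs, an adult beta-globin, was at 91.5, 27.7 and 57.5 against 781, 297 and 404 CPM (log2 difference -3.07 ± 0.66 SE, edgeR adjusted p = 0.00539). Hba-a1, an alpha-globin, was at 35.1, 9.19 and 19.6 against 201, 102 and 141 CPM (log2 difference -2.79 ± 0.57 SE, edgeR adjusted p = 0.00404). The globin pairs Hba-a1 with Hba-a2 (-2.87) and Hbb-bs with Hbb-bt (-2.94) are near-identical copies, and how their shared reads were counted is not stated. The Hbb-bt call was lost without wild-type replicate 1 (-2.39, edgeR adjusted p = 0.0513).

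Other large falls rested in part on wild-type replicate 1, which was the highest wild-type library for 11 of the 15. Epcam, an epithelial adhesion molecule also found on some macrophages, was at 3.30, 11.8 and 7.96 against 90.2, 28.6 and 34.5 CPM (log2 difference -2.73 ± 0.48 SE, edgeR adjusted p = 9.59e-04). Hr, a corepressor of nuclear receptors, was at 2.98, 2.30 and 2.82 against 31.9, 10.8 and 10.5 CPM (log2 difference -2.71 ± 0.51 SE, edgeR adjusted p = 0.00166). Without wild-type replicate 1 these differences were -2.04 and -1.99, with the calls kept. Adamtsl4, a secreted matrix protein, was at 0.938, 1.08 and 3.63 against 20.9, 4.52 and 8.31 CPM (log2 difference -2.55 ± 0.54 SE, edgeR adjusted p = 0.00404, -1.74 without wild-type replicate 1 and -3.48 without CD11b-high knockout replicate 3). Gprin1, which acts in neurite outgrowth, was at 57.1, 15.5 and 18.1 against 382, 72.5 and 70.9 CPM (log2 difference -2.53 ± 0.66 SE, edgeR adjusted p = 0.0191). Its call was lost without wild-type replicate 1 (-1.25, edgeR adjusted p = 0.136) and without CD11b-high knockout replicates 2 (adjusted p = 0.0846) or 3 (adjusted p = 0.0688), and the difference was -3.38 without replicate 1. Sftpc, surfactant protein C of alveolar type 2 cells, was at 3.75, 2.02 and 6.66 against 10.9, 27 and 52.4 CPM (log2 difference -2.85 ± 0.76 SE, edgeR adjusted p = 0.0215). This call was lost without wild-type replicate 3 (-2.19, edgeR adjusted p = 0.0727) or CD11b-high knockout replicate 2 (-2.53, adjusted p = 0.0927).

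The CD11b-low knockout libraries were used to show where each gene stood between the groups. The log2 difference is the sum of a step from wild-type to knockout within CD11b-low cells and a step from CD11b-low to CD11b-high within knockout cells. Over all genes, 412 (3.1%) passed the first step and 92 (0.693%) the second. These counts rested on single libraries: the first step called 230 to 426 genes without any 1 library, the fewest without CD11b-low knockout replicate 2, with 257 without wild-type replicate 1 and 271 without wild-type replicate 2. The second step called 247 without CD11b-high knockout replicate 1, 20 and 21 without replicates 2 and 3, and 3 and 2 without CD11b-low knockout replicates 2 and 3. Same-numbered knockout libraries correlated at 0.429, 0.353 and 0.113 in their deviations from the group means. With the number as a pair the second step called 105 genes (0.79%), 75 of them also called without it. The steps share libraries with each other and with the full comparison, so their values are set side by side without a test of their likeness. Of the 15 rises, 7 passed the first step, 7 the second, 2 of them both, and 3 neither; with pairs, 7 passed the second, 3 both and 4 neither. Fstl1 gained the second call with pairs and Mmp13 lost it (edgeR adjusted p = 0.0408 without pairs and 0.0723 with them). Fstl1, for example, was at 560.2, 187 and 395 CPM in CD11b-low knockout cells, with a first step of 6.51 (edgeR adjusted p = 2.66e-06) and a second of 1.75 (adjusted p = 0.0665, or 1.83 with adjusted p = 0.0287 with pairs). Ccl7 was at 2.14, 3.04 and 4.11 CPM there, with a first step of 2.20 (edgeR adjusted p = 0.173) and a second of 5.07 (adjusted p = 0.0149). Mmp12 passed both steps, at 3.98 (edgeR adjusted p = 3.29e-04) and 3.40 (adjusted p = 0.00527), and so did Npy, at 5.97 (adjusted p = 6.11e-04) and 4.18 (adjusted p = 0.00102). Of the 15 falls, 10 passed the first step and 2 the second, or 3 with pairs, where Haao was added (edgeR adjusted p = 0.148 without and 0.0304 with pairs). For Hbb-bs the first step was -3.15 (edgeR adjusted p = 0.015) and the second 0.08 (adjusted p = 0.985). Gal passed the second step at -1.62 (edgeR adjusted p = 0.00527) while its first step was -0.84 (adjusted p = 0.0599).

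**Figure D3:**
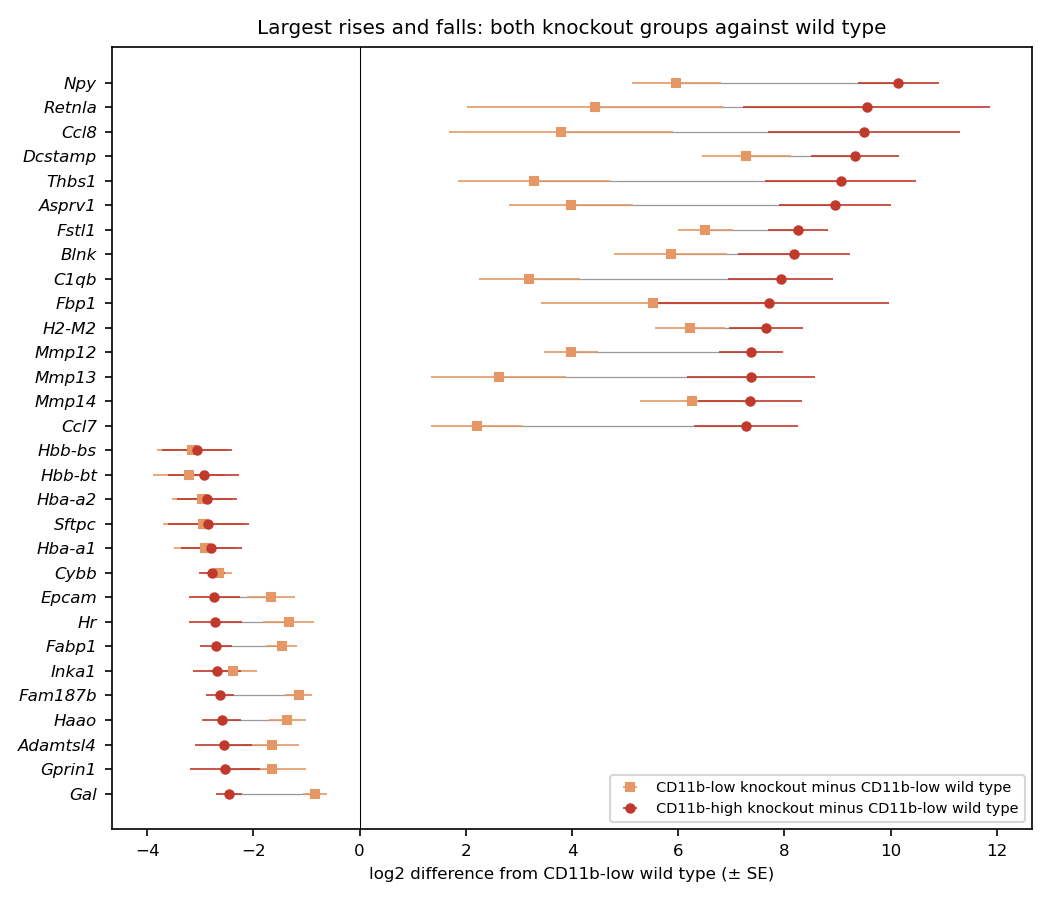
Log2 differences from wild-type, with SE, of the 15 largest rises and 15 largest falls in CD11b-low knockout (squares) and CD11b-high knockout cells (circles). The rises were chosen for their difference in CD11b-high cells, which favours a place farther from 0 there, as for Ccl7 (2.20 and 7.28). Without pairs, the step between the knockout groups was called for 7 of the 15 rises. The globins and Cybb lie at nearly the same place in both knockout groups.

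Chemokines of the CC family, the signals that draw monocytes, T cells and eosinophils, were higher almost throughout. All 12 listed CC chemokines were tested and 11 were higher, with none lower and a median log2 difference of 3.5, against 9.23% of all genes higher and a median of -0.01. Ccl9 was at 1288, 1531 and 1174 against 40.5, 63.4 and 34.6 CPM (log2 difference 4.85 ± 0.39 SE, edgeR adjusted p = 9.59e-07). Ccl4, an attractant of monocytes and T cells, was at 46.9, 346 and 338 against 4.31, 2.71 and 2.92 CPM (log2 difference 6.20 ± 0.59 SE, edgeR adjusted p = 4.25e-06). For Ccl4, as for Ccl7 above, replicate 1 was the lowest CD11b-high knockout library and still at least 10 times above every wild-type library. Ccl17 and Ccl22, ligands of CCR4, were 11.3-fold and 8.54-fold higher (edgeR adjusted p = 0.00101 and 1.73e-04), and their differences fell from 3.50 to 2.51 and from 3.09 to 2.35 without CD11b-high knockout replicate 2. Ccl2, the main ligand of the monocyte receptor CCR2, was at 22.8, 184 and 131 against 8.65, 5.67 and 15.5 CPM (log2 difference 3.51 ± 0.90 SE, edgeR adjusted p = 0.019). Ccl24, an eosinophil attractant, was at 0, 65.2 and 6.45 against 0.0403, 0.127 and 0 CPM, with overlapping groups (log2 difference 8.48 ± 2.29 SE, edgeR adjusted p = 0.0342). Neither of these calls was stable: Ccl2 lost it without CD11b-high knockout replicate 2 (edgeR adjusted p = 0.0687) or wild-type replicates 1 (0.0796) or 2 (0.0782). Ccl24 lost its call without CD11b-high knockout replicate 2 (5.63, edgeR adjusted p = 0.0693) and without any 1 of the wild-type libraries (adjusted p = 0.0974 to 0.106). The number of CC chemokines higher was 7 without CD11b-high knockout replicate 2 and 8 to 11 without any other library. Of 7 CXC chemokines tested, 2 were higher and 1 lower, with the lower call lost without any 1 library except wild-type replicate 3. Cxcl3, a neutrophil attractant, was at 49.8, 68.3 and 43.7 against 2.09, 1.27 and 8.03 CPM (log2 difference 3.84 ± 0.54 SE, edgeR adjusted p = 1.27e-04, 5.0 without wild-type replicate 3). Cxcl16, a membrane-bound ligand of CXCR6, was at 31.7, 44.4 and 47.3 against 4.87, 2.32 and 1.78 CPM (log2 difference 3.78 ± 0.41 SE, edgeR adjusted p = 1.30e-05).

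Among cytokines and growth factors, 13 of 24 tested were higher and 3 lower, with a median of 1.58. Inhba, which encodes the activin A subunit, was at 68.9, 70.1 and 56.5 against 0.201, 0.637 and 0.639 CPM, 131-fold higher (log2 difference 7.03 ± 0.68 SE, edgeR adjusted p = 4.80e-06). Csf1, the growth factor of macrophages, was at 10.2, 31.5 and 59.8 against 0.121, 0.414 and 0.502 CPM (log2 difference 6.60 ± 0.89 SE, edgeR adjusted p = 1.24e-04, 5.90 without CD11b-high knockout replicate 3). Inhba, like Fstl1, was at a level that no wild-type library approached. Tnfsf9, the costimulatory ligand of 4-1BB, was at 3.38, 10.3 and 8.62 against 0, 0.446 and 0.913 CPM (log2 difference 4.05 ± 0.91 SE, edgeR adjusted p = 0.00677, 4.95 without wild-type replicate 3). Il12b, the shared subunit of IL-12 and IL-23, was at 2.12, 21.3 and 6.20 against 0.121, 2.58 and 0.639 CPM with overlapping groups (log2 difference 3.11 ± 0.99 SE, edgeR adjusted p = 0.0456), and lost its call without any library except CD11b-high knockout replicate 1 and wild-type replicate 2. The Il12b difference was 1.88 without CD11b-high knockout replicate 2 and 4.71 without wild-type replicate 2. The wider list of TGF-beta and SMAD genes, 25 tested, held 5 higher and 4 lower. Its largest members were Thbs1, Fstl1 and Inhba, and Tgfb1 itself was at 5.50, 2.44 and 2.85 against 16.3, 5.0 and 5.75 CPM (log2 difference -1.33 ± 0.44 SE, edgeR adjusted p = 0.0488). The Tgfb1 call was lost without wild-type replicate 1 (-0.58, edgeR adjusted p = 0.304) and without CD11b-high knockout replicates 2 (adjusted p = 0.194) or 3 (adjusted p = 0.144). Without CD11b-high knockout replicate 2, 3 were higher and 1 lower in this list, and without wild-type replicate 1, 2 were lower.

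**Figure D4:**
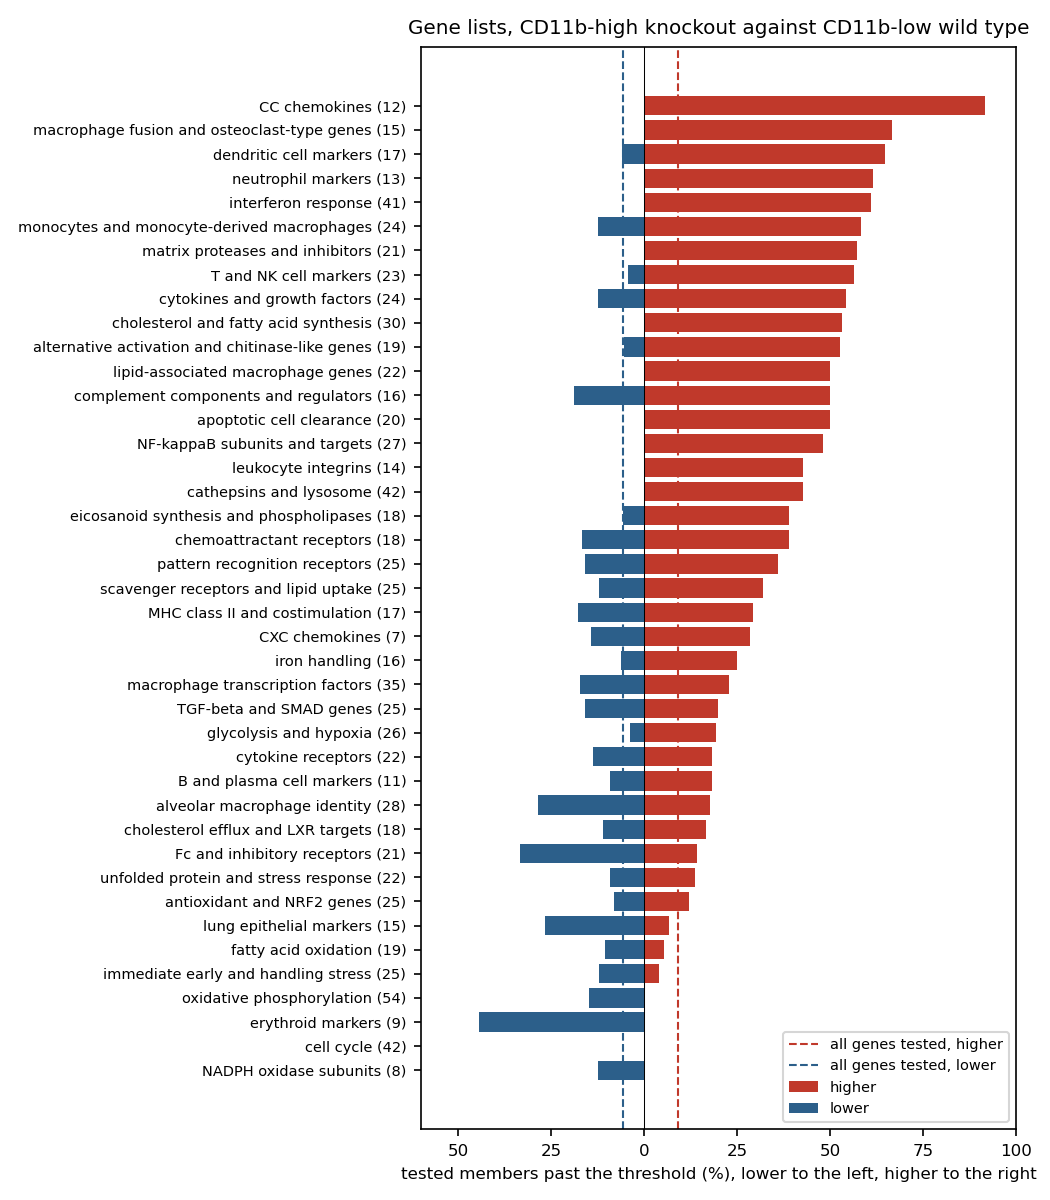
Share of the tested members of each list (their number in brackets) that were higher (red, to the right) or lower (blue, to the left) in CD11b-high knockout than in wild-type macrophages. Dashed lines mark the shares over all genes tested, 9.23% higher and 5.6% lower; CC chemokines stand highest with 11 of 12, and cell cycle genes have none of 42 in this fit.

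Receptors of chemoattractants and inflammatory signals were raised in part. Of 18 chemoattractant receptors tested, 7 were higher and 3 lower (median 1.63), and 12 were higher without CD11b-high knockout replicate 1. Ptafr, the receptor of platelet-activating factor, was at 164, 457 and 341 against 3.18, 6.56 and 7.49 CPM (log2 difference 5.80 ± 0.42 SE, edgeR adjusted p = 3.66e-07). Cxcr1, a receptor of CXC chemokines, was at 308, 165 and 143 against 9.62, 8.47 and 5.34 CPM (log2 difference 4.71 ± 0.46 SE, edgeR adjusted p = 4.35e-06). C3ar1, the receptor of complement fragment C3a, was at 17.9, 48 and 25.3 against 1.49, 0.828 and 2.28 CPM (log2 difference 4.32 ± 0.59 SE, edgeR adjusted p = 1.08e-04). The receptor of complement fragment C5a was lower instead. C5ar1 was at 163, 422 and 279.5 against 253, 1189 and 1291 CPM, with overlapping groups (log2 difference -1.66 ± 0.47 SE, edgeR adjusted p = 0.0257), and its call was lost without CD11b-high knockout replicates 1 or 3 or wild-type replicates 2 or 3 (edgeR adjusted p 0.0744 to 0.0844). Il1r2, the decoy receptor of IL-1, was at 17.4, 57 and 39.2 against 0.121, 0.637 and 0.685 CPM (log2 difference 6.28 ± 0.63 SE, edgeR adjusted p = 5.26e-06), without overlap. Of 22 cytokine receptors tested, 4 were higher and 3 lower, 31.8% of them against 14.8% of all genes. Ifngr2, a chain of the interferon gamma receptor, was 2.38-fold higher (edgeR adjusted p = 8.87e-04), and Il17ra, a chain of the IL-17 receptor, 3.30-fold lower (adjusted p = 0.00159).

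Receptors of microbial products and Fc receptors divided. Of 25 pattern recognition receptors tested, 9 were higher and 4 lower, and 5 were higher without CD11b-high knockout replicate 2. Tlr13, a sensor of bacterial RNA, was at 73.3, 110.1 and 81.7 against 27.4, 11.4 and 19.4 CPM (log2 difference 2.19 ± 0.33 SE, edgeR adjusted p = 2.39e-04). Clec4e, the glycolipid sensor Mincle, was at 122, 145 and 132 against 38.8, 50.6 and 54 CPM (log2 difference 1.47 ± 0.24 SE, edgeR adjusted p = 5.03e-04). Clec7a, the beta-glucan receptor Dectin-1, was at 4385, 4057 and 5199 against 696, 2422 and 2173 CPM (log2 difference 1.37 ± 0.38 SE, edgeR adjusted p = 0.0231), a call lost without CD11b-high knockout replicate 3 (adjusted p = 0.0672). The inhibitory lectin Clec4a2 was 2.73-fold lower (edgeR adjusted p = 1.73e-04). Of 21 Fc and inhibitory receptors tested, 3 were higher and 7 lower, against 5.6% of all genes lower. Fcgr1, the high-affinity IgG receptor, was at 40.1, 57.7 and 41.1 against 137, 173 and 138 CPM (log2 difference -1.69 ± 0.22 SE, edgeR adjusted p = 7.49e-05). Pilra, an inhibitory receptor, was at 297, 384 and 245 against 1029, 1139 and 930.0 CPM (log2 difference -1.74 ± 0.22 SE, edgeR adjusted p = 5.50e-05). Siglece, a sialic acid binding inhibitory receptor, was 2.48-fold lower (edgeR adjusted p = 0.00174). Cd300a went the other way, 4.56-fold higher (edgeR adjusted p = 6.38e-05). Without CD11b-high knockout replicate 2, 1 member of this list was higher, and without replicate 3, 4 were lower. The leukocyte integrins, 14 tested, had 6 higher and none lower, but 2 without CD11b-high knockout replicate 2 or wild-type replicate 2, and 3 without wild-type replicate 3. Itgam was 1 of the 6. Itgb2, its beta chain, was at 4452, 4378 and 2957 against 936, 2296 and 2635 CPM (log2 difference 1.01 ± 0.31 SE, edgeR adjusted p = 0.0369), and the call was lost without CD11b-high knockout replicate 1 (adjusted p = 0.0837) or 2 (0.129) or wild-type replicate 2 (0.0528).

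Some of the enzymes that break down matrix and lysosomal contents were higher, and so were some genes of osteoclasts and multinucleated giant cells, with none lower in these lists. Macrophages can fuse into giant cells, and these share Dcstamp, Ctsk and Acp5 with the bone-resorbing osteoclast. Of 21 matrix proteases and inhibitors tested, 12 were higher and none lower (median 2.28), and 10 to 13 were higher without any 1 library. Adam8, a membrane protease of activated macrophages, was at 3.02, 37.7 and 25.2 against 0.644, 0.732 and 0.730 CPM (log2 difference 4.96 ± 0.70 SE, edgeR adjusted p = 1.50e-04, 4.32 without CD11b-high knockout replicate 2). Mmp2, a gelatinase, was at 12.4, 3.37 and 3.01 against 0, 0.509 and 0.183 CPM (log2 difference 4.67 ± 1.0 SE, edgeR adjusted p = 0.0047, 3.70 without CD11b-high knockout replicate 1, 6.10 without wild-type replicate 2). Of 15 fusion and osteoclast-type genes tested, 10 were higher and none lower. Their median was 2.87, or 2.42 with Mmp9 and Slc9b2, named after their values were seen because they had no read in the wild-type group, set to a floor of 3 reads per library. Ctsk, a collagen-degrading cathepsin, was at 11322, 7222 and 6588 against 623, 1286 and 1190.0 CPM, 8.11-fold higher (log2 difference 3.02 ± 0.35 SE, edgeR adjusted p = 2.42e-05). Acp5, tartrate-resistant acid phosphatase, was at 1262, 819 and 924 against 356, 572 and 404 CPM (log2 difference 1.17 ± 0.26 SE, edgeR adjusted p = 0.00634). The groups did not overlap for either gene. Fewer of this list passed without CD11b-high knockout replicate 2 (5), wild-type replicate 1 (5) or wild-type replicate 2 (6).

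Of 42 cathepsin and lysosome genes tested, 18 were higher and none lower (median 0.57). Ctsb was at 16045, 13622 and 10145 against 1736, 5525 and 4855 CPM (log2 difference 1.72 ± 0.34 SE, edgeR adjusted p = 0.00252), and Ctsl at 1950.1, 1417 and 1127 against 325, 532 and 448 CPM (log2 difference 1.78 ± 0.29 SE, edgeR adjusted p = 5.18e-04); both encode cysteine proteases. Gla, the alpha-galactosidase that removes galactose from glycolipids, was at 293, 322 and 184 against 43.6, 91.3 and 85.5 CPM (log2 difference 1.86 ± 0.28 SE, edgeR adjusted p = 3.11e-04). Atp6v1a, a subunit of the proton pump that acidifies lysosomes, was at 699.7, 800.4 and 614 against 139.8, 233 and 241 CPM (log2 difference 1.78 ± 0.24 SE, edgeR adjusted p = 1.06e-04). Wild-type replicate 1 was the lowest library for each of these 4 genes, and 10 of the list were higher without CD11b-high knockout replicate 2 and 6 with only the 6 libraries in the fit. Without wild-type replicate 1, 2 of the list were lower.

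Genes of lysosomes and osteoclasts are known targets of MITF, TFEB and related factors, which bind TCACGTGA and TCACATGA, both forms of TCACNTGA. RefSeq promoter windows of 250 bases before the start (GRCm38.p6) were searched on both strands for TCACNTGA with any base as N. TCANGTGA is the same core on the other strand, and TCACGTGA, which reads alike on both, was counted once. Matches thus include letters outside these forms, such as TCAGGTGA, the only match of Lgals3 in the lipid-associated list. They occurred in the windows of 5 of 30 lysosome genes, 1 of 9 fusion genes and 3 of 17 lipid-associated genes with a window, against 3.98% of all 27025 genes with one. Among the lysosome genes, 3 of 12 higher and 2 of 18 other tested genes had a match. A match is only a description of the letters. The windows of 3 higher genes are printed in the direction of the gene, with matches in capitals. Gla held 3 matches, Atp6v1a represents the proton pump, and Mmp12 the lipid-associated list. The matrix protease list was not searched.
Gla (chrX:134601006-134601255, minus strand): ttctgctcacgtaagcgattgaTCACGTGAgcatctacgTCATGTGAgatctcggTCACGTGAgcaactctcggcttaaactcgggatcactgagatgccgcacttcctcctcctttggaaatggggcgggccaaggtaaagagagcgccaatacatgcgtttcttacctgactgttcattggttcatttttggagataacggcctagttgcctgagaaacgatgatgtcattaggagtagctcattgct
Atp6v1a (chr16:44139260-44139509, minus strand): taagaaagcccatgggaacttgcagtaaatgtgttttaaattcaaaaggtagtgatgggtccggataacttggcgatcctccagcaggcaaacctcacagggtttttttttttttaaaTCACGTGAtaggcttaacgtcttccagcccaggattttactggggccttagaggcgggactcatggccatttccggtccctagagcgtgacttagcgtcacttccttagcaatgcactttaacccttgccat
Mmp12 (chr9:7347124-7347373, plus strand): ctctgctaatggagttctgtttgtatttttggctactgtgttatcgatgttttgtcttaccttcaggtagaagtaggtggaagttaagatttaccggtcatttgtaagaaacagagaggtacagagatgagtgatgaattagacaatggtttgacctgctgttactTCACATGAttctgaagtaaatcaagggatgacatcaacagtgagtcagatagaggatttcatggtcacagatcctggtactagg

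Genes of lipid-laden macrophages and of cholesterol synthesis were higher in large part, while Cidec, a gene of lipid storage, was lower. Of 22 lipid-associated macrophage genes, all tested, 11 were higher and none lower (median 1.15), and 9 to 12 were higher without any 1 library. Gpnmb, a glycoprotein of phagocytic macrophages, was at 5303, 3503 and 4315 against 253, 638 and 508 CPM (log2 difference 3.23 ± 0.36 SE, edgeR adjusted p = 1.73e-05). Spp1, the secreted protein osteopontin, was at 4190.2, 6775 and 4935 against 775, 1549 and 1198 CPM (log2 difference 2.17 ± 0.30 SE, edgeR adjusted p = 1.19e-04). Both genes were abundant in the wild-type libraries too, so the change was one of degree. Cd63, a tetraspanin of lysosomes, was 6.10-fold higher (edgeR adjusted p = 1.89e-04). Syngr1, a vesicle membrane protein, was at 42.6, 28.5 and 56 against 0.725, 1.11 and 0.730 CPM (log2 difference 5.61 ± 0.61 SE, edgeR adjusted p = 1.29e-05). Of 30 genes of cholesterol and fatty acid synthesis tested, 16 were higher and none lower (median 1.18), and 14 to 16 were higher without any 1 library. Insig1, which restrains the sterol-sensing SREBP pathway, was at 67.5, 126 and 119 against 21.9, 22.3 and 26.9 CPM (log2 difference 2.14 ± 0.29 SE, edgeR adjusted p = 8.54e-05). The synthesis enzymes Cyp51 and Sc5d were 3.42-fold and 3.76-fold higher (edgeR adjusted p = 2.21e-04 and 5.78e-04).

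Uptake and storage of lipid were mixed. Of 25 genes tested, 8 were higher and 3 lower. Cd36, a receptor for oxidised lipid and apoptotic cells, was at 1506, 1574 and 1329 against 133, 476 and 485 CPM (log2 difference 2.01 ± 0.37 SE, edgeR adjusted p = 0.0016). Msr1, the class A scavenger receptor, was at 100, 80.1 and 56.5 against 9.42, 17 and 12.7 CPM (log2 difference 2.59 ± 0.34 SE, edgeR adjusted p = 6.24e-05). Soat1, which makes cholesterol esters for storage, was 3.37-fold higher (edgeR adjusted p = 0.00126). In contrast Cidec, which enlarges lipid droplets, was at 99.4, 145 and 206 against 289, 786 and 711 CPM (log2 difference -1.99 ± 0.35 SE, edgeR adjusted p = 9.53e-04). Cholesterol efflux and LXR targets had 3 of 18 higher and 2 lower, 27.8% of them against 14.8% of all genes. Ch25h, which makes 25-hydroxycholesterol, was 2.62-fold higher (edgeR adjusted p = 0.00667), and the LXR target Mylip, a ubiquitin ligase, 2.97-fold lower (adjusted p = 5.78e-04). Counts in this small list shifted with single libraries, to 1 higher without CD11b-high knockout replicate 2 or wild-type replicate 2 and to 5 lower without wild-type replicate 1.

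Identity genes of alveolar macrophages went in both directions. Of 28, all tested, 5 were higher and 8 lower, with a median of -0.06 against -0.01 for all genes. Ear1 and Ear2, ribonucleases of resident alveolar macrophages with near-identical sequences, were at 235, 220.3 and 176 against 1473, 968 and 726 CPM (log2 difference -2.33 ± 0.25 SE, edgeR adjusted p = 1.24e-05) and at 1064, 972 and 749.8 against 5211, 3839 and 3140.0 CPM (log2 difference -2.13 ± 0.24 SE, edgeR adjusted p = 1.84e-05). Fabp1 and Cidec, given above, were also among the lower identity genes. Bhlhe41, a transcription factor of alveolar macrophages, was at 405, 991 and 708 against 40.7, 64.4 and 132 CPM (log2 difference 3.15 ± 0.50 SE, edgeR adjusted p = 4.19e-04), higher in each CD11b-high knockout library than in any wild-type library. Without CD11b-high knockout replicate 2, 2 identity genes were higher and 5 lower, and 3 were higher without CD11b-high knockout replicate 1 or wild-type replicate 2. The summed level of the list was 63870 to 84040 CPM (of all counts) for CD11b-high knockout libraries, against 49660 to 63540 CPM.

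Of 24 genes of monocytes and monocyte-derived macrophages, all tested, 14 were higher and 3 lower (median 3.05). Plac8 was at 2.24, 11.7 and 6.85 against 0, 0.764 and 0.0913 CPM (log2 difference 4.49 ± 0.95 SE, edgeR adjusted p = 0.00416). Hp, haptoglobin, was at 92.3, 76.7 and 47.6 against 11.6, 3.25 and 2.46 CPM (log2 difference 3.64 ± 0.64 SE, edgeR adjusted p = 0.00126). The groups did not overlap for either gene, but the size of the difference depended on single libraries. It was 4.64 for Hp without wild-type replicate 1, 7.19 for Plac8 without wild-type replicate 2, and 3.90 for Plac8 without CD11b-high knockout replicate 2. Fcgr1, a marker often used for monocyte-derived macrophages, was lower, as given above. The list summed to 770 to 1229 CPM against 629 to 882 CPM, so the groups overlapped in total level, and 9 members were higher without CD11b-high knockout replicate 2. Among 35 macrophage transcription factors tested, 8 were higher and 6 lower. Epas1, a hypoxia-inducible factor, was at 26.7, 8.53 and 17.4 against 4.23, 2.10 and 1.96 CPM (log2 difference 2.66 ± 0.58 SE, edgeR adjusted p = 0.00494), and Klf2 at 4.52, 4.83 and 6.76 against 13.2, 10.4 and 16.5 CPM (log2 difference -1.31 ± 0.37 SE, edgeR adjusted p = 0.0245). The Klf2 call was lost without CD11b-high knockout replicates 1 (adjusted p = 0.0664) or 2 (0.0982) or wild-type replicate 3 (0.0666). Without CD11b-high knockout replicate 2, 3 transcription factors were higher and 1 lower; 4 were higher without wild-type replicate 2, and 3 were lower without CD11b-high knockout replicate 3 or wild-type replicate 1.

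Interferon-response genes were higher in large number. Of 41 tested, 25 were higher and none lower (median 1.09), and 15 to 21 were higher without any 1 library, the fewest without CD11b-high knockout replicate 2. Oasl2, of the oligoadenylate synthetase family, was at 19.7, 28.5 and 17.4 against 0.403, 0.987 and 0.411 CPM (log2 difference 5.14 ± 0.57 SE, edgeR adjusted p = 1.39e-05, 5.73 without wild-type replicate 2). Usp18, which removes ISG15 from proteins and dampens interferon signalling, was at 20.7, 51.9 and 33.8 against 1.05, 0.541 and 2.10 CPM (log2 difference 4.87 ± 0.56 SE, edgeR adjusted p = 2.14e-05, 5.49 without wild-type replicate 3). Ifitm1, a membrane protein that restricts viruses, was at 8.27, 6.33 and 6.41 against 0.201, 0.0955 and 0.0913 CPM (log2 difference 5.72 ± 0.68 SE, edgeR adjusted p = 3.08e-05). All CD11b-high knockout libraries were above all wild-type libraries for these genes. Ifit1, an RNA-binding antiviral protein, was at 9.78, 21.8 and 11.6 against 0.362, 3.15 and 0.548 CPM (log2 difference 3.37 ± 0.66 SE, edgeR adjusted p = 0.00247, 4.98 without wild-type replicate 2). Rsad2, which encodes viperin, was at 8.40, 16.3 and 17.1 against 1.81, 0.286 and 0.867 CPM (log2 difference 3.83 ± 0.80 SE, edgeR adjusted p = 0.00445, 4.64 without wild-type replicate 1). The list summed to 973 to 1172 CPM against 610 to 763 CPM.

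The interferon-stimulated response element is bound by STAT and IRF factors, and its core was searched on both strands as GAAA followed, after any 2 bases, by GAAA. It occurred in the 250-base windows of 20 of the 34 list members with a window (58.8%), against 3.46% of all 27025 genes with one. The list was made of known interferon-response genes, so its excess over all genes can come from that choice and says nothing of these libraries. Of the higher genes 12 of 18 had a match and of the other tested genes 7 of 13, so most of both had one. A match is only a description of the letters here too. Windows of 3 higher genes are printed below to show single and repeated copies, with matches in capitals (TTTC repeated after 2 bases is the same core on the other strand). Isg15, a ubiquitin-like protein, was chosen after its values were seen because it held 3 overlapping matches; it was at 16.8, 19.9 and 19.7 against 7.61, 12.4 and 9.49 CPM (edgeR adjusted p = 0.0417).
Ifit1 (chr19:34640639-34640888, plus strand): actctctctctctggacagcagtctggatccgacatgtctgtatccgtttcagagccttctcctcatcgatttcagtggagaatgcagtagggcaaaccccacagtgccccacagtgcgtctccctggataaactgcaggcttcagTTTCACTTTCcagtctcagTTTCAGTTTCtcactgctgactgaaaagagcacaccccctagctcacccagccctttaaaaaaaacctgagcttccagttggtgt
Rsad2 (chr12:26456453-26456702, minus strand): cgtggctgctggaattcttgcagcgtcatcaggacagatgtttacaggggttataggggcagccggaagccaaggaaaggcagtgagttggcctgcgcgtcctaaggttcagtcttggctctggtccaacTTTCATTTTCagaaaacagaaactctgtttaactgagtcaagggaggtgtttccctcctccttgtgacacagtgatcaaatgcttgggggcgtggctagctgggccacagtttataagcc
Isg15 (chr4:156200819-156201068, minus strand): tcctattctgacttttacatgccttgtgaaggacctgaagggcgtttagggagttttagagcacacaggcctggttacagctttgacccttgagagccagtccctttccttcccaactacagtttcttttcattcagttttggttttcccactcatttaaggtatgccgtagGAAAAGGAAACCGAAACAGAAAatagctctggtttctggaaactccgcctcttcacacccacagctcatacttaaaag

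Of 27 NF-kappaB subunits and targets tested, 13 were higher and none lower (median 0.92). Tnip3, a feedback inhibitor of the pathway, was at 27.7, 74 and 38.1 against 0.523, 0.637 and 0.822 CPM (log2 difference 6.14 ± 0.52 SE, edgeR adjusted p = 1.35e-06). Traf1, a signalling adaptor, was at 5.10, 24.4 and 13.7 against 0.201, 1.02 and 1.0 CPM (log2 difference 4.27 ± 0.76 SE, edgeR adjusted p = 0.00114, 3.65 without CD11b-high knockout replicate 2). Nfkbie, an inhibitory subunit, was 2.46-fold higher (edgeR adjusted p = 0.00143). Only 6 of the list were higher without CD11b-high knockout replicate 2. Of 25 immediate early and handling stress genes tested, 1 was higher and 3 lower, 16% of them against 14.8% of all genes, with 0 to 2 higher and 0 to 5 lower without any 1 library.

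Of 20 genes for the clearance of dying cells tested, 10 were higher and none lower, and 6 were higher without CD11b-high knockout replicate 2. Mfge8, a secreted protein that links apoptotic cells to integrins, was at 3588, 1819.5 and 1445 against 12, 33.7 and 28.2 CPM, 92.6-fold higher (log2 difference 6.53 ± 0.62 SE, edgeR adjusted p = 4.35e-06). Cd93, a receptor related to C1q binding, was at 129.7, 89.4 and 66.8 against 8.86, 11.8 and 10.1 CPM (log2 difference 3.22 ± 0.38 SE, edgeR adjusted p = 2.99e-05). Timd4, a receptor of phosphatidylserine, was at 2.73, 9.05 and 4.43 against 0.0805, 0.923 and 0.456 CPM (log2 difference 3.43 ± 0.81 SE, edgeR adjusted p = 0.00939), with 2.84 (adjusted p = 0.0575) without CD11b-high knockout replicate 2 and 4.33 without wild-type replicate 2. Mfge8 was the strongest of them, and even the lowest CD11b-high knockout library exceeded the highest wild-type library more than 10-fold. Of 16 complement genes tested, 8 were higher and 3 lower. Cfb, a factor of the alternative pathway, was at 51.8, 50.1 and 40.1 against 1.85, 7.13 and 8.67 CPM (log2 difference 3.01 ± 0.39 SE, edgeR adjusted p = 6.15e-05), and C3, its substrate, at 182, 213 and 145 against 75.9, 31.8 and 43.3 CPM (log2 difference 1.84 ± 0.31 SE, edgeR adjusted p = 7.10e-04). Cfp, properdin, which stabilises the same convertase, was lower at 139.6, 169 and 183 against 249, 523 and 449 CPM (log2 difference -1.31 ± 0.26 SE, edgeR adjusted p = 0.00275). The lower complement calls numbered 1 without CD11b-high knockout replicates 1 or 3 or wild-type replicate 3.

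Alternative activation and antigen presentation were uneven. Of 19 alternative activation genes tested, 10 were higher and 1 lower, with none lower without CD11b-high knockout replicates 2 or 3 or wild-type replicate 1. Arg1, arginase 1, was at 3.91, 314 and 64.8 against 1.05, 2.42 and 1.19 CPM (log2 difference 6.34 ± 1.21 SE, edgeR adjusted p = 0.0037, 4.45 without CD11b-high knockout replicate 2). Mgl2, a galactose-binding lectin, was at 4.77, 61.6 and 21.2 against 0.362, 0.637 and 0.137 CPM (log2 difference 6.20 ± 1.05 SE, edgeR adjusted p = 0.00107, 5.04 without CD11b-high knockout replicate 2, 6.82 without wild-type replicate 2). As with Retnla, replicate 2 was the highest and replicate 1 the lowest CD11b-high knockout library for both genes. The list had 5 higher members without CD11b-high knockout replicate 2 and 6 without wild-type replicates 2 or 3. Of 17 MHC class II and costimulation genes tested, 5 were higher and 3 lower. H2-DMa, a chaperone of peptide loading, was at 528, 573 and 394 against 2262, 1802 and 1794 CPM (log2 difference -1.97 ± 0.23 SE, edgeR adjusted p = 2.40e-05). Cd86, a costimulatory ligand, was at 88, 106 and 83.5 against 30.1, 37.2 and 42.3 CPM (log2 difference 1.34 ± 0.22 SE, edgeR adjusted p = 7.09e-04). The loading gene and the costimulatory gene named here thus went in opposite directions. Cd40, a receptor of T cell help, was at 2.36, 17.4 and 9.17 against 0.0403, 0.541 and 0.502 CPM (log2 difference 4.71 ± 1.01 SE, edgeR adjusted p = 0.00509, 3.97 without CD11b-high knockout replicate 2). Higher members numbered 2 without CD11b-high knockout replicate 2 and 3 without replicate 3 or wild-type replicates 1 or 2. Of 18 eicosanoid genes tested, 7 were higher and 1 lower. Ptgir, the prostacyclin receptor, was at 122, 158 and 168 against 3.66, 13.5 and 4.47 CPM (log2 difference 4.36 ± 0.45 SE, edgeR adjusted p = 7.75e-06, 5.19 without wild-type replicate 2). Alox5ap, needed for leukotriene synthesis, was at 1135, 959 and 896 against 4405, 3316 and 2738 CPM (log2 difference -1.81 ± 0.23 SE, edgeR adjusted p = 6.24e-05). Without CD11b-high knockout replicate 2, 4 eicosanoid genes were higher, and without wild-type replicate 1, 4 were lower.

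The metabolic lists had 14.8 to 23.1% of their tested members called, against 14.8% of all genes. Of 54 oxidative phosphorylation genes, all tested, none was higher and 8 were lower, with a median of -0.57. Ndufs8, a complex I subunit, was at 285, 239 and 237 against 646, 616 and 492 CPM (log2 difference -1.21 ± 0.20 SE, edgeR adjusted p = 7.10e-04), and its call held without any 1 library. The number of lower members was unstable. It was 1 without CD11b-high knockout replicate 2, 2 without replicate 3, 16 without replicate 1, 5 without wild-type replicate 2 and 17 without wild-type replicate 3, and DESeq2 called 15 lower and limma voom 17. The share of mitochondrial reads was also lower in these libraries, as given at the start, and its part in these values was not tested. Of 26 glycolysis and hypoxia genes, 5 were higher and 1 lower, and Slc2a1, a glucose transporter, was at 26.6, 25.4 and 23.1 against 4.03, 8.50 and 13.8 CPM (log2 difference 1.52 ± 0.32 SE, edgeR adjusted p = 0.00455). The lower glycolysis call was lost without CD11b-high knockout replicate 2 or wild-type replicates 2 or 3, and 3 were lower without wild-type replicate 1. Of 19 fatty acid oxidation genes tested, 1 was higher and 2 lower, with 1 lower without CD11b-high knockout replicates 2 or 3 and 4 without wild-type replicate 1, while limma voom called 5 lower. Pdk4, which turns pyruvate away from oxidation, was 4.86-fold higher (edgeR adjusted p = 6.77e-05). Etfb, an electron carrier of fatty acid oxidation, was 2.08-fold lower (edgeR adjusted p = 0.00535).

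Besides Cybb, no subunit of the NADPH oxidase passed the edgeR test: of 8 tested, 1 was lower and none higher, while DESeq2 and limma voom each called 1 higher. Without wild-type replicates 2 or 3, 2 were lower, and without wild-type replicate 2, 1 was higher. Cyba, the partner p22phox, was at 4386, 2561 and 4098 against 5149, 4877 and 3657 CPM (log2 difference -0.31 ± 0.27 SE, edgeR adjusted p = 0.491). Of 25 antioxidant genes tested, 3 were higher and 2 lower, 20% of them against 14.8% of all genes. Only 1 was higher without CD11b-high knockout replicate 2 or wild-type replicate 2, and none was lower without CD11b-high knockout replicate 2, 1 without replicate 3 and 4 without wild-type replicate 3. Slc7a11, the cystine importer, was at 45.8, 64.7 and 45.6 against 25.3, 8.53 and 7.80 CPM (log2 difference 1.91 ± 0.47 SE, edgeR adjusted p = 0.0116), with a call lost without CD11b-high knockout replicate 2 (adjusted p = 0.0519) or wild-type replicate 2 (adjusted p = 0.0558) and a difference of 2.66 without wild-type replicate 1. Iron genes held 4 of 16 higher and 1 lower, 31.2% of them against 14.8% of all genes. Of these, 2 were higher without CD11b-high knockout replicate 3 or wild-type replicate 2. None was lower without CD11b-high knockout replicate 2 or wild-type replicate 2. Slc11a1, the iron and manganese transporter of phagosomes, was at 49.3, 78.3 and 74.2 against 4.83, 4.20 and 1.78 CPM (log2 difference 4.21 ± 0.56 SE, edgeR adjusted p = 7.98e-05). Fth1, ferritin heavy chain, which has many processed copies in the genome, was at 1678, 10588 and 26453 against 3158, 982 and 1072 CPM, with overlapping groups (log2 difference 2.89 ± 0.68 SE, edgeR adjusted p = 0.00998). The Fth1 level varied more than 10-fold among the CD11b-high knockout libraries, and its difference was 1.82 (adjusted p = 0.0541) without replicate 3 and 3.64 without wild-type replicate 1. The call was also lost without wild-type replicate 2 (adjusted p = 0.0508). Of 22 genes of the unfolded protein response tested, 3 were higher and 2 lower, 22.7% of them against 14.8% of all genes. Higher members numbered 1 without CD11b-high knockout replicates 2 or 3 or wild-type replicate 2 and 5 without CD11b-high knockout replicate 1. None was lower without any 1 CD11b-high knockout library, and 1 without wild-type replicates 1 or 2. Hspa5, its main chaperone, was at 1318, 1626 and 2318 against 438, 1009.9 and 1075 CPM (log2 difference 1.06 ± 0.33 SE, edgeR adjusted p = 0.0399). The Hspa5 call was lost without CD11b-high knockout replicates 2 or 3 or wild-type replicates 1 or 2 (edgeR adjusted p 0.0531 to 0.154). No cell cycle gene of 42 passed in the edgeR test, with 10 at an unadjusted p under 0.05. DESeq2 called 4 on the same genes and 3 with its own filter (1 higher and 2 lower), and limma voom called none. Ccnd2 was higher in both DESeq2 fits (log2 difference 0.74, DESeq2 adjusted p = 0.0338 and 0.0367). In edgeR, 2 passed with upper-quartile scaling, 4 with no filter on low counts, 1 with the replicate block or without CD11b-high knockout replicate 3, and 3 without wild-type replicates 2 or 3, all of them lower.

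Several markers of neutrophils and eosinophils were higher in the CD11b-high knockout libraries, although most of the defining granule genes of both cell types were at or near 0. Of 13 neutrophil markers tested, 8 were higher and none lower, and their sum was 400 to 590 CPM of the library total, against 105 to 147 CPM. S100a8, a calcium-binding protein of neutrophils and monocytes, was at 313, 246 and 353 against 50.4, 27.9 and 23.9 CPM (log2 difference 3.16 ± 0.40 SE, edgeR adjusted p = 5.50e-05). S100a9, its partner, was at 15.5, 63.4 and 49.8 against 0.886, 0.0318 and 0.593 CPM (log2 difference 6.46 ± 0.81 SE, edgeR adjusted p = 6.17e-05, 7.24 without wild-type replicate 1, 5.84 without wild-type replicate 2). Of the defining neutrophil genes that were too low to test, Ly6g had no count, Mpo, Elane and Camp at most 2 counts and Ngp at most 16 counts in any of the 6 libraries. Of 4 eosinophil markers tested, 3 were higher, but only 1 without CD11b-high knockout replicate 2 or without any 1 wild-type library. The list summed to 1166, 471 and 622.4 CPM in CD11b-high knockout replicates 1 to 3 against 238 to 298 CPM. Most of the CD11b-high knockout sum was Ear6 and Siglecf, which alveolar macrophages also express. Over the 3 libraries of each group, Ear6 had 49863 against 1037 counts and Siglecf 15014 against 21720. The rise of the sum was thus mostly that of the single gene Ear6. Ear6, of the same ribonuclease family as Ear1 and Ear2, was at 1201, 307 and 429 against 16.5, 12.5 and 10.7 CPM (log2 difference 5.61 ± 0.68 SE, edgeR adjusted p = 5.50e-05, 4.79 without CD11b-high knockout replicate 1). The other higher members, Prg2 and Alox15, were named after their values were seen, to complete the count. Prg2, an eosinophil granule protein, was at 0, 8.72 and 0.465 against 0.0403, 0 and 0 CPM, with overlapping groups, and Alox15, a lipoxygenase, at 0.204, 13.6 and 0.899 against 0.201, 0 and 0 CPM. CD11b-high knockout replicate 2 was the highest library for both, while it had the lowest list sum of its group. The eosinophil granule genes Epx and Prg3 had no count in the 6 libraries, and the eosinophil receptor Ccr3, which was too low to test, had up to 102 counts in a CD11b-high knockout library and none in a wild-type library. The part of such cells in the chemokine and receptor differences above was not tested.

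Many T, NK and dendritic cell markers were higher, but the summed level of the T and NK list was lower. Of 23 T and NK cell markers tested, 13 were higher and 1 lower (median 3.34). Their sum was 964 to 1094 CPM against 1385 to 1598 CPM, so the sum and the count went in opposite directions. Since 22 of the 23 had a log2 difference above 0, the lower sum rested on the 1 lower member and does not describe the list. The lower call was lost without CD11b-high knockout replicates 2 or 3 or wild-type replicate 2. Cd3e, a chain of the T cell receptor complex, was at 6.11, 19.9 and 6.35 CPM in CD11b-high knockout, 12.2, 32.3 and 10.6 CPM in CD11b-low knockout and 0.242, 0.732 and 0.411 CPM in the wild-type group (log2 difference 4.50 ± 0.75 SE, edgeR adjusted p = 7.17e-04, 3.71 without CD11b-high knockout replicate 2). Il7r, the IL-7 receptor, was at 55.8, 123 and 61 against 0.483, 0.891 and 0.456 CPM (log2 difference 6.99 ± 0.54 SE, edgeR adjusted p = 6.28e-07). Cxcr6 was at 14.6, 62.8 and 21.7 CPM in CD11b-high knockout, 18.1, 89.2 and 58 CPM in CD11b-low knockout and 0.966, 0.987 and 1.10 CPM in the wild-type group (log2 difference 5.02 ± 0.67 SE, edgeR adjusted p = 1.08e-04, 4.15 without CD11b-high knockout replicate 2). T cell transcripts were thus present in both knockout groups. Of 17 dendritic cell markers tested, 11 were higher and 1 lower, and their sum was 262 to 790 CPM against 127 to 146 CPM, highest in CD11b-high knockout replicate 2. Ccr7, the receptor of migrating dendritic cells, was at 17.5, 124 and 51.1 against 0.523, 6.08 and 4.20 CPM (log2 difference 4.15 ± 1.0 SE, edgeR adjusted p = 0.014), but 3.24 (adjusted p = 0.0561) without CD11b-high knockout replicate 2 and 4.77 without wild-type replicate 2. Only 5 dendritic cell markers were higher without CD11b-high knockout replicate 2. Ccl17 and Ccl22, which are also in the chemokine and alternative activation lists, are among these markers. Of 11 B and plasma cell markers tested, 2 were higher and 1 lower, 27.3% of them against 14.8% of all genes. Their sums overlapped, at 271 to 322 against 217 to 419 CPM. Neither higher call held without CD11b-high knockout replicates 2 or 3 or wild-type replicate 1, and 1 held without wild-type replicate 2. The lower call was lost without any 1 CD11b-high knockout library or wild-type replicate 1.

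Some markers of red cells and epithelium were lower. Of 9 erythroid markers tested, 4 were lower and none higher, the globins given above, and the list summed to 80.6 to 178 CPM against 524 to 1377 CPM. Of 15 lung epithelial markers tested, 4 were lower and 1 higher, but the median was 0.3 and 8 of the 15 were above 0. The list summed to 737 to 1103 CPM against 1002 to 1933 CPM. Most of these sums was the keratin gene Krt19, with 53221 against 108747 counts over the 3 libraries of each group. Its lower call was lost without CD11b-high knockout replicates 1 or 2 or wild-type replicates 2 or 3. The part of red cells and epithelial cells in these falls was not tested. Cdh1, E-cadherin, which alveolar macrophages also express, was the higher one, at 38.3, 77 and 54 against 20.5, 18.2 and 18.4 CPM (log2 difference 1.57 ± 0.28 SE, edgeR adjusted p = 0.0013). Epithelial genes were lower for 2 members without CD11b-high knockout replicate 2 or wild-type replicate 3. Of the 3 endothelial and stromal markers that could be tested, 2 were higher, with sums of 49.1 to 73.9 CPM against 17.8 to 33.7 CPM, and the collagen gene Col1a2 and the endothelial gene Cldn5 had no count in the 6 libraries.

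**Figure D5:**
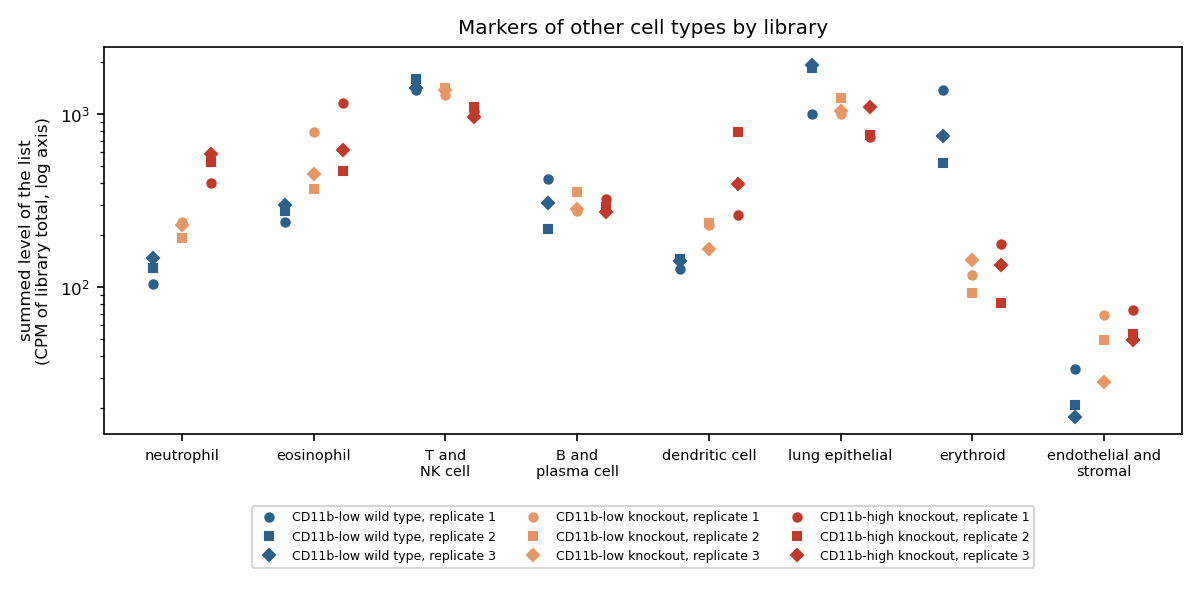
Summed level (CPM of the library total, log axis) of the markers of 8 other cell types in each 12-week library, with wild-type in blue, CD11b-low knockout in orange and CD11b-high knockout in red, and the marker shape giving the replicate. Neutrophil sums are 400 to 590 CPM in the CD11b-high knockout and 105 to 147 CPM in the wild-type libraries, and erythroid sums 80.6 to 178 and 524 to 1377 CPM.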

How the data were processed

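RNA of sorted alveolar macrophages was amplified with SMARTer chemistry and sequenced, and 15 libraries in 5 groups were mapped to their labels. The authors deposited 1 table of raw counts per gene; STAR, Subread and featureCounts are named in the submitters' processing notes. Versions, genome build and use of strand are not given in the sources used here, so overlapping genes and near-identical copies are uncertain. Of 40780 rows, 270 repeated a gene already listed and were left out, and 25100 of the 40510 genes had a count. Genes were kept by filterByExpr (minimum count 10, total 15), scaled by TMM and tested with the robust quasi-likelihood test of edgeR 4.0.16 (R 4.3.3) over all 15 libraries, with 10 residual degrees of freedom and Benjamini-Hochberg adjustment at 0.05 over the 13284 genes tested. SE is the log2 difference divided by the square root of F. DESeq2 1.42.0 and limma 3.58.1 were alternatives. The fit was tested on simulated data. The second step, within knockout cells, was also fitted with the replicate number of the labels as a pair, chosen after seeing the data. Its source is that same-numbered CD11b-high and CD11b-low knockout libraries correlated at 0.429, 0.353 and 0.113 in their deviations from the group means; the labels do not say that they share mice. Since each library pools 2 to 3 mice, p-values measure the spread between pools. That spread was estimated over all 5 groups, including the 4-week libraries, which are outside the comparison.

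The text names Cybb, the genes of the sort, the 15 largest rises and 15 largest falls (called, at least 10 CPM in the higher group, groups not overlapping, no predicted genes), and up to 6 called members of each list with the largest differences and at least 5 CPM, or the 2 most abundant where fewer than 2 passed. Some genes that this rule selects are not reported here. The comparison, the lists and their members were chosen with earlier results of these data known, so counts of members are descriptions. The members that failed the filter on low counts stand outside the counts given. Promoter windows and their build come from RefSeq, matched by symbol.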

Additional observations from a re-analysis of the deposited data

How the results depend on the processing

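With all 15 libraries in the fit, 1970 genes were called (1226 higher, 744 lower). Another scaling, DESeq2, limma voom, no filter, a stricter filter or the replicate number as a block gave 1797 to 2502. Fits on fewer libraries called fewer: 793 with the 6 libraries (630 higher, 163 lower) and 1032 with the 9 libraries of 12-week mice (763 higher, 269 lower). Leaving out 1 library gave 952 to 2099 called, 694 to 1307 higher and 258 to 909 lower. The lowest value in each was without CD11b-high knockout replicate 2, and 447 were lower without replicate 3. With CD11b-high knockout replicate 2 alone against the wild-type libraries, an alternative chosen after seeing the data, 1045 were called (858 higher, 187 lower). The higher genes made up 62.2% of calls with all libraries, 79.4% with 6, 73.9% with 9, 72.9% without CD11b-high knockout replicate 2 and 82.1% with that library alone. Every gene called in both an alternative and the fit of all 15 libraries kept its direction. This is a description and not a test, because the alternatives reuse libraries of that fit.

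The labels do not say that replicate numbers pair any groups. Same-numbered CD11b-high knockout and wild-type libraries correlated at 0.165, 0.185 and 0.019 in their deviations from the group means. Same-numbered CD11b-high and CD11b-low knockout libraries correlated at 0.429, 0.353 and 0.113, and no test was made of either set. With the replicate block, 2138 genes were called over 15 libraries (1338 higher, 800 lower) and 896 with the 6 libraries (697 higher, 199 lower). For the step from CD11b-low to CD11b-high knockout cells, the number as a pair moved the count from 92 to 105. Leaving out 1 library, also chosen after seeing the data, gave 2 to 247 for this step and 230 to 426 for the step from wild-type to knockout in CD11b-low cells. Ptprc ranged from -0.11 to 0.26 with 1 library left out, and was below 0 without CD11b-high knockout replicate 2 (-0.11) or wild-type replicate 1 (-0.10).

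Of the 198 genes the naming rule selects, 57 lost their call with only the 6 libraries, 46 with 9, 12 with limma voom and 52 without CD11b-high knockout replicate 2. List counts moved likewise: with only the 6 libraries, 14 interferon genes, 6 lysosome genes, 9 cholesterol genes and 4 fusion genes were higher, but 12 matrix proteases. The cause of these shifts was not tested. Fits on 6 or 9 libraries leave out the 4-week libraries, which help set the spread in the fit of all 15. They also have fewer libraries to set it. The simulation recovered 14% of genes changed 2-fold, but it changed far fewer genes than were called in the data. Changes of that size may have been missed here. Xist was present in CD11b-high knockout replicates 1 and 3 but nearly absent in replicate 2 (0.175 CPM) and the wild-type libraries. Sums of red cell, neutrophil and dendritic cell markers did not overlap between the groups, while those of B cell markers did. Genotype and CD11b subset cannot be told apart.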
